A study of Homo sapiens with 62 samples.

Results

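The 8 genes described here encode the kinases that act on splicing factors: the 4 CDC2-like kinases CLK1, CLK2, CLK3 and CLK4, the dual-specificity kinases DYRK1A and DYRK1B, and the SR protein kinases SRPK1 and SRPK2. They were taken by gene name from the 29794 genes counted in 2 human pancreatic cancer cell lines. The choice followed measured values: CLK1 was picked as one of the strongest losses after CDK9 inhibition in AsPC-1 cells, so every value of that comparison is given as a description without a test. Of the 8 genes, 6 (CLK1, CLK3, CLK4, DYRK1A, SRPK1 and SRPK2) had enough reads for all comparisons, while CLK2 and DYRK1B had few T>C reads.

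CLKs sit in the nucleus and phosphorylate serine- and arginine-rich (SR) proteins, which releases these splicing factors from nuclear speckles. SRPKs phosphorylate the same RS domains mainly in the cytoplasm, which marks SR proteins for import into the nucleus. DYRKs autophosphorylate a tyrosine in their own activation loop and then phosphorylate serines and threonines of many substrates, splicing factors among them. CLK1 and CLK4 transcripts are known for introns that remain unspliced in the nucleus until kinase activity falls.

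AsPC-1 is a line of classical and T3M-4 of basal-like identity. In all libraries of both lines the endogenous KLF5 gene, a transcription factor gene, had been disrupted with an sgRNA and replaced by a lentiviral FKBP12-F36V-FLAG-KLF5 cDNA, whose protein product dTAG degrades; the cells were selected populations. Cells received dTAG (dTAGv1) or its inactive analog NEG (dTAG-NEG) for 4 h, the RUVBL1/2 ATPase inhibitor CB-6644 or the solvent DMSO for 4 h (AsPC-1 also 12 h), or the CDK9 inhibitor NVP-2 for 4 h, and newly made RNA was tagged with 4-thiouridine for the final 2 h. CDK9 is the kinase of P-TEFb, which releases paused RNA polymerase II into elongation. The AsPC-1 libraries of 4 h numbered 10 each for dTAG and NEG, 5 each for CB-6644 and DMSO and 4 for NVP-2. Those of 12 h numbered 4 for CB-6644 and 4 for its solvent. In T3M-4, each of the 5 treatments was sampled at 4 h with 4 libraries. Libraries of one experiment (2 or 3 experiments per treatment at 4 h) may be technical repeats, so p-values measure the spread between libraries.

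Reads with T-to-C conversions (T>C reads) come mainly from RNA made during labelling, with a background of other mismatches that was not measured here, and all reads from the whole RNA pool. Outside NVP-2, libraries held 8296433 to 18311982 T>C reads in AsPC-1 and 13562612 to 27982537 in T3M-4. After NVP-2 they held 2240998 to 3517345 and 3714015 to 4982006, and the T>C share of all reads fell to between 1.35% and 1.91% in AsPC-1 and between 1.80% and 2.80% in T3M-4, from at least 7.58% and 11.0% in the other libraries. Levels are given as counts-per-million values (CPM) of the T>C reads (T>C CPM) or of all reads (all-reads CPM), both scaled by the TMM method, and are compared between libraries for 1 gene but not between genes. T>C CPM is thus a share of the labelled RNA that a library still held. All 5 epithelial keratin and adhesion markers (KRT8, KRT18, KRT19, EPCAM and CDH1) were above 1 CPM in both lines. Of 4 classical markers (AGR2, GATA6, HNF4A and TFF1), 4 had a median of at least 1 CPM in AsPC-1 and 2 in T3M-4. HNF4A was at 14.9 CPM in AsPC-1 and 0.180 CPM in T3M-4, but AGR2 had similar medians in both lines. Of 4 basal-like markers (KRT5, KRT17, S100A2 and TP63), 1 reached this level in AsPC-1 (S100A2) and 4 in T3M-4. TP63 was at a median of 0 in AsPC-1 and 26.8 CPM in T3M-4. The fibroblast, immune and endothelial markers COL1A1, DCN, PTPRC and PECAM1 summed to at most 0.867 CPM in AsPC-1 and 9.57 CPM in T3M-4.

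CLKs are also called LAMMER kinases, after a stretch of residues in the catalytic domain that is shared from plants to mammals, and the coding bases of this stretch are shown because they define the family described. They were read 5′ to 3′ on the coding strand from GRCh38 with GENCODE v44 coding annotation of the canonical transcript, and capitals mark the 6 codons of the stretch, which lies in exon 11 of each of the 4 genes. In CLK3 the 6 codons do not spell LAMMER. The CLK1 stretch lies at chr2:200854651-200854680 (minus strand), CLK2 at chr1:155264256-155264285 (minus), CLK3 at chr15:74628619-74628648 (plus) and CLK4 at chr5:178605338-178605367 (minus).
CLK1: gagcatTTAGCAATGATGGAAAGGattctt
CLK2: gagcatCTAGCCATGATGGAAAGGatcttg
CLK3: gagcacCTGGTGATGATGGAGAAGatccta
CLK4: gagcacCTGGCAATGATGGAACGAatatta
Of the 30 bases, CLK1 shared 25 with CLK2, 22 with CLK4 and 21 with CLK3.

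DYRKs are defined by a pair of tyrosines in the activation loop, and capitals below mark the 2 tyrosine codons. The stretch lies in exon 8 of DYRK1A at chr21:37493020-37493049 (plus strand) and in exon 7 of DYRK1B at chr19:39827624-39827653 (minus).
DYRK1A: TACcagTATattcagagtcgcttttatcgg
DYRK1B: TACcagTATatccagagccgcttctaccgc
The 2 genes shared 25 of these 30 bases.

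The counted reads fall at the other end of the genes, in 3′ UTR exons. The canonical 3′ UTR was 300 bases long in CLK1 (chr2:200853009-200853308, 43.0% T on the sense strand), 353 in CLK2 (28.6% T), 321 in CLK3 (22.4% T), 956 in CLK4 (37.2% T), 13830 in DYRK1A (29.8% T), 368 in DYRK1B (22.0% T), 2341 in SRPK1 (34.3% T) and 1467 in SRPK2 (36.5% T). These base contents matter because only a T can show a conversion, so a labelled share is tested only between conditions for 1 gene, and its order between genes is a description. No 100-base stretch of a member's 3′ UTRs occurred in another gene's transcripts, except 1.87% of the CLK4 stretches, which also occur in RN7SKP70. The SRPK1 3′ UTR overlaps LHFPL5 on the opposite strand, a gene with at most 33 reads per library in AsPC-1 and 76 in T3M-4.

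CLK2 and DYRK1B gave few reads. CLK2 had 0 to 27 T>C reads per library in AsPC-1 and 0 to 84 in T3M-4, with 0 in 20 of 42 and 5 of 20 libraries. Every CLK2 count in every library was a whole multiple of 3, and GENCODE v44 lists 3 entries for its 3′ UTR exons, and whether reads were counted more than once was not tested. DYRK1B, linked to cell cycle exit, had 0 to 30 T>C reads in AsPC-1 and 0 to 48 in T3M-4. A count of 0 allows up to 3 reads, for counting error only. Before TMM scaling this is 0.107 to 0.362 CPM in the libraries without NVP-2 and 0.602 to 1.34 CPM in those with it. With TMM scaling, 3 T>C reads of DYRK1B were 1.89 CPM in AsPC-1 NVP-2 library 2.2. In T3M-4 NVP-2 library 2.2, 1 T>C read of CLK4 was 0.435 CPM. The unscaled range is therefore not a limit for the TMM-scaled levels. For CLK2 a limit of 3 reads would also be too low if its reads were counted more than once. Where CLK2 and DYRK1B passed the filter on low counts they are included in the numbers of kinases tested, and their levels are given as read counts.

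In DMSO-treated cells CLK1, CLK4 and DYRK1A had the highest shares of labelled reads among the 6 kinases. In DMSO at 4 h the labelled share of CLK1 was 64.4% ± 5.3 (SD, n = 5) in AsPC-1 and 86.7% ± 5.0 (n = 4) in T3M-4. Among genes with a mean of at least 100 reads per library, the pooled CLK1 share lay above 99.9% of 11270 genes in AsPC-1 and 99.9% of 12479 in T3M-4. The median gene had 15.1% and 16.9%.

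CLK4, the closest relative of CLK1, had a labelled share of 47.4% ± 4.4 in AsPC-1 and 69.3% ± 5.7 in T3M-4. DYRK1A, whose gene lies on chromosome 21 and is triplicated in Down syndrome, had 39.5% ± 2.3 and 50.1% ± 3.4. CLK3 had 29.5% ± 5.4 and 34.2% ± 8.5. The SRPKs lay close to the median gene, with 16.1% ± 2.6 and 17.9% ± 3.8 for SRPK1 and 20.7% ± 4.7 and 21.1% ± 6.9 for SRPK2.

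**Figure D1:**
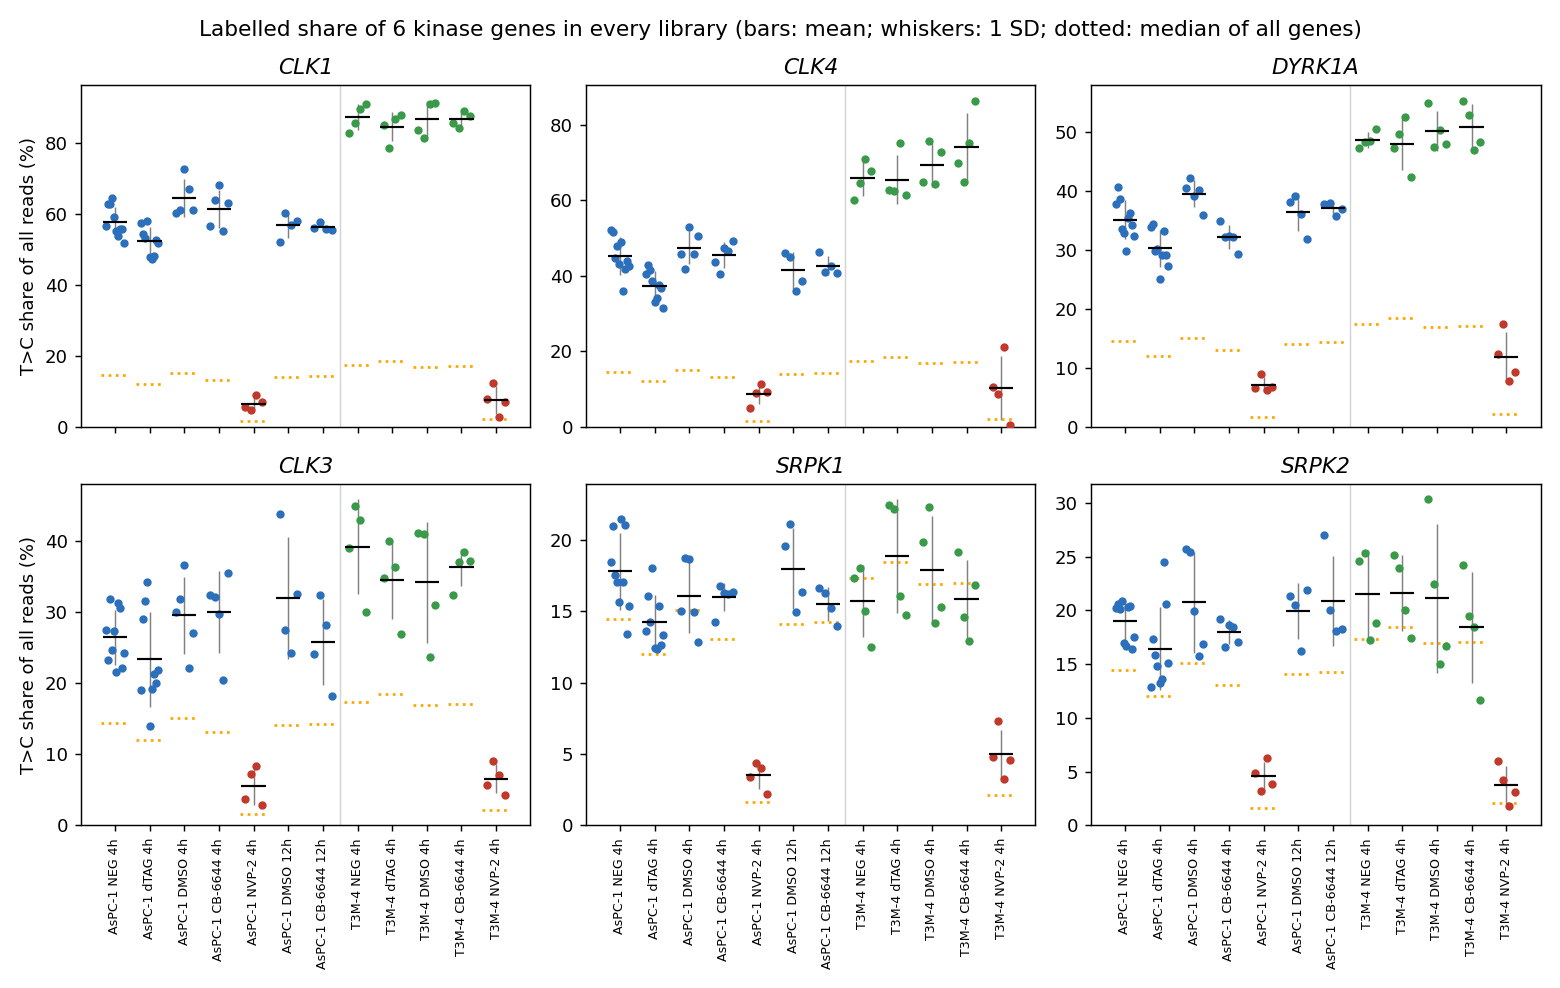
The T>C share of all reads in percent (vertical axis) for 6 kinase genes in every library, by group (horizontal axis), with AsPC-1 left and T3M-4 right of the grey line. Points are libraries (NVP-2 in red), black bars means, whiskers 1 SD and dotted lines the median over genes with enough reads: CLK1 lay between 47.1% and 72.5% in AsPC-1 and between 78.5% and 91.2% in T3M-4 without NVP-2, and between 2.73% and 12.3% in the 8 NVP-2 libraries.

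The lines differed in labelled share for 3 of the 7 kinases tested, all higher in T3M-4 (limma on log2 odds of the share, Benjamini-Hochberg adjusted over all genes). By this test 16% of 13044 genes differed and 13.1% were higher. CLK1 was higher by 1.92 in log2 odds (SE 0.32, adjusted p = 0.00445), CLK4 by 1.34 (SE 0.23, adjusted p = 0.00497) and DYRK1A by 0.62 (SE 0.16, adjusted p = 0.0298), where the median gene was higher by 0.29. With the median gene removed from each library the DYRK1A difference was 0.44 (adjusted p = 0.0864), and without 1 library in turn it missed the threshold in 6 of 9 fits (adjusted p up to 0.0780). CLK3, SRPK1 and SRPK2 did not pass the test. The AsPC-1 DMSO libraries of 4 h were of batch 1 and the T3M-4 libraries of batches 1 and 2, and the part of batch in this difference was not tested. The same AsPC-1 DMSO libraries are the reference of the NVP-2 comparison that chose CLK1, so the CLK1 p-value here is not independent of that choice.

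The lines were also compared in level. In T>C reads 1 of 7 kinases passed (edgeR quasi-likelihood test), CLK3, higher in T3M-4 by 0.70 on the log2 scale (SE 0.27, adjusted p = 0.0488), while 48.4% of 13044 genes differed and 26.8% were higher. CLK3 had 32.8, 51.4, 50.5, 39.3 and 46.0 T>C CPM in AsPC-1 DMSO and 79.9, 91.6, 35.6 and 53.0 in T3M-4 DMSO, so the groups overlapped, and the call was lost in 8 of 9 fits that left out 1 library, all but that without T3M-4 DMSO 2.1, with changes of 0.50 to 0.79 and adjusted p up to 0.160. In all reads 3 of 8 passed, beside 55.7% of 15464 genes (30.5% higher and 25.2% lower): CLK3 was higher by 0.63 (SE 0.22, adjusted p = 0.0302), and CLK1 and CLK4 were lower by log2 differences of -0.52 (SE 0.19, adjusted p = 0.0351) and -0.77 (SE 0.23, adjusted p = 0.0159). Without 1 library in turn the call was lost in 6 of 9 fits for CLK1 (adjusted p up to 0.0847), in 5 of 9 for CLK3 (up to 0.0979) and in 0 of 9 for CLK4. CLK1 and CLK4 thus had lower all-reads CPM but a larger labelled share in T3M-4. For CLK1, these tests reuse the AsPC-1 DMSO libraries behind its choice, so its p-values between the lines are not independent of that choice.

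After NVP-2 in T3M-4 cells, CLK1 was much lower in both T>C reads and all reads. Its T>C level was 132, 106, 149 and 127 CPM in the 4 DMSO libraries and 9.09, 13.6, 5.22 and 5.65 CPM in the 4 NVP-2 libraries, which rest on 31, 59, 14 and 13 T>C reads. All 4 NVP-2 libraries lay below every DMSO library. How many of all genes separated without overlap after NVP-2 was not counted, here and for the other kinases below. In these bulk samples, fewer cells with the transcript and less of it per cell cannot be told apart. This was a log2 difference of -3.87 (SE 0.39, adjusted p = 0.000272, edgeR), rank 268 from the lowest of 12242 genes.

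In all reads CLK1 had 23.2, 18.6, 18.8 and 15.97 CPM with DMSO and 2.34, 2.78, 2.46 and 1.22 CPM with NVP-2, again without overlap. The mean was 8.72 times lower, and the log2 fold change was -3.12 (SE 0.27, adjusted p = 0.000606), rank 85 of 15653. The labelled share of CLK1 fell from 86.7% ± 5.0 to 7.45% ± 3.9 (n = 4 each), a log2 odds change of -6.57 (SE 0.55, limma adjusted p = 2.5e-05), where the median gene was at -3.62. In T>C reads the CLK1 change was -3.30 in batch 1 alone and -4.62 in batch 2 alone, and between -4.23 and -3.73 without each single library. With the counts of each experiment summed (2 against 2) it was -3.91 with an adjusted p of 0.0648 in the edgeR fit, in which no gene passed.

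Across the family, 2 of 6 kinases passed in T>C reads after NVP-2 in T3M-4, 1 lower (CLK1) and 1 higher (SRPK1), where 26.7% of 12242 genes passed, 14.2% lower and 12.4% higher. In all reads 2 of 7 passed, both lower (CLK1 and DYRK1A), where 5.16% of 15653 genes passed and 4.91% were lower. In labelled share 6 of 6 were lower, as were 93.8% of all 12242 genes, with the median gene at -3.62 in log2 odds. The median log2 fold change of the kinases was -0.17 in T>C reads (6 genes) and -0.88 in all reads (7 genes), against -0.12 and 0.06 over all genes. These medians are not over the same genes, and -0.88 is the value of DYRK1B (SE 0.59), which had few reads and did not pass.

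DYRK1A had 32.6, 39.9, 32.7 and 34.7 all-reads CPM with DMSO and 16.6, 19.9, 9.15 and 10.2 with NVP-2, a log2 fold change of -1.32 (SE 0.25, adjusted p = 0.0171). The groups did not overlap in all reads. In T>C CPM they did, with 121 to 145 against 55.2 to 138, and the change of -0.55 (SE 0.33, adjusted p = 0.244) did not pass. The all-reads call was lost without NVP-2 library 2.2 (-1.20, adjusted p = 0.0539) and without DMSO library 1.2 (-1.25, adjusted p = 0.0549), 2 of 8 such fits, and in batch 1 alone the change was -0.98 (adjusted p = 0.109).

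CLK4 did not pass in T>C or all reads. Its all-reads CPM was 5.50, 4.83, 3.07 and 3.29 with DMSO and 2.63, 2.01, 1.16 and 1.46 with NVP-2, with a log2 fold change of -1.19 (SE 0.30, adjusted p = 0.0582). Its T>C CPM was 24.1, 25.5, 17.2 and 20.9 with DMSO and 13.5, 6.93, 19.0 and 0.435 with NVP-2, the last from 1 read, with a change of -1.08 (SE 0.69, adjusted p = 0.280). The T>C groups overlapped and the all-reads groups did not, but such separation was not counted over all genes.

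SRPK1 went the other way in T>C CPM. It had 37.7, 63.4, 40.9 and 42.6 CPM with DMSO and 92.9, 113, 104 and 162 with NVP-2, all above DMSO, a log2 fold change of 1.395 (SE 0.29, adjusted p = 0.00632), but the direction turned to -1.64 (SE 0.40, adjusted p = 0.00285) when T>C reads were scaled by each library's total of all reads. In batch 1 alone the rise on T>C scaling was 1.103 (adjusted p = 0.0584). In all reads SRPK1 changed by 0.37 (SE 0.17, adjusted p = 0.324), and its labelled share went from 17.9% ± 3.8 to 4.97% ± 1.7 (log2 odds -2.10, SE 0.38, adjusted p = 0.000796). The median gene was at -3.62 in log2 odds, so SRPK1 lost less of its share than the median gene.

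SRPK2, with a T>C change of 0.48 (SE 0.36), and CLK3, with 0.20 (SE 0.36), did not pass in T>C or all reads, and scaled by the total of all reads they were at -2.46 and -2.78. CLK2 and DYRK1B had no T>C read in any of the 4 NVP-2 libraries, and 3 to 84 and 9 to 45 in the DMSO libraries. Both were too low to be fitted in T>C reads here.

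**Figure D2:**
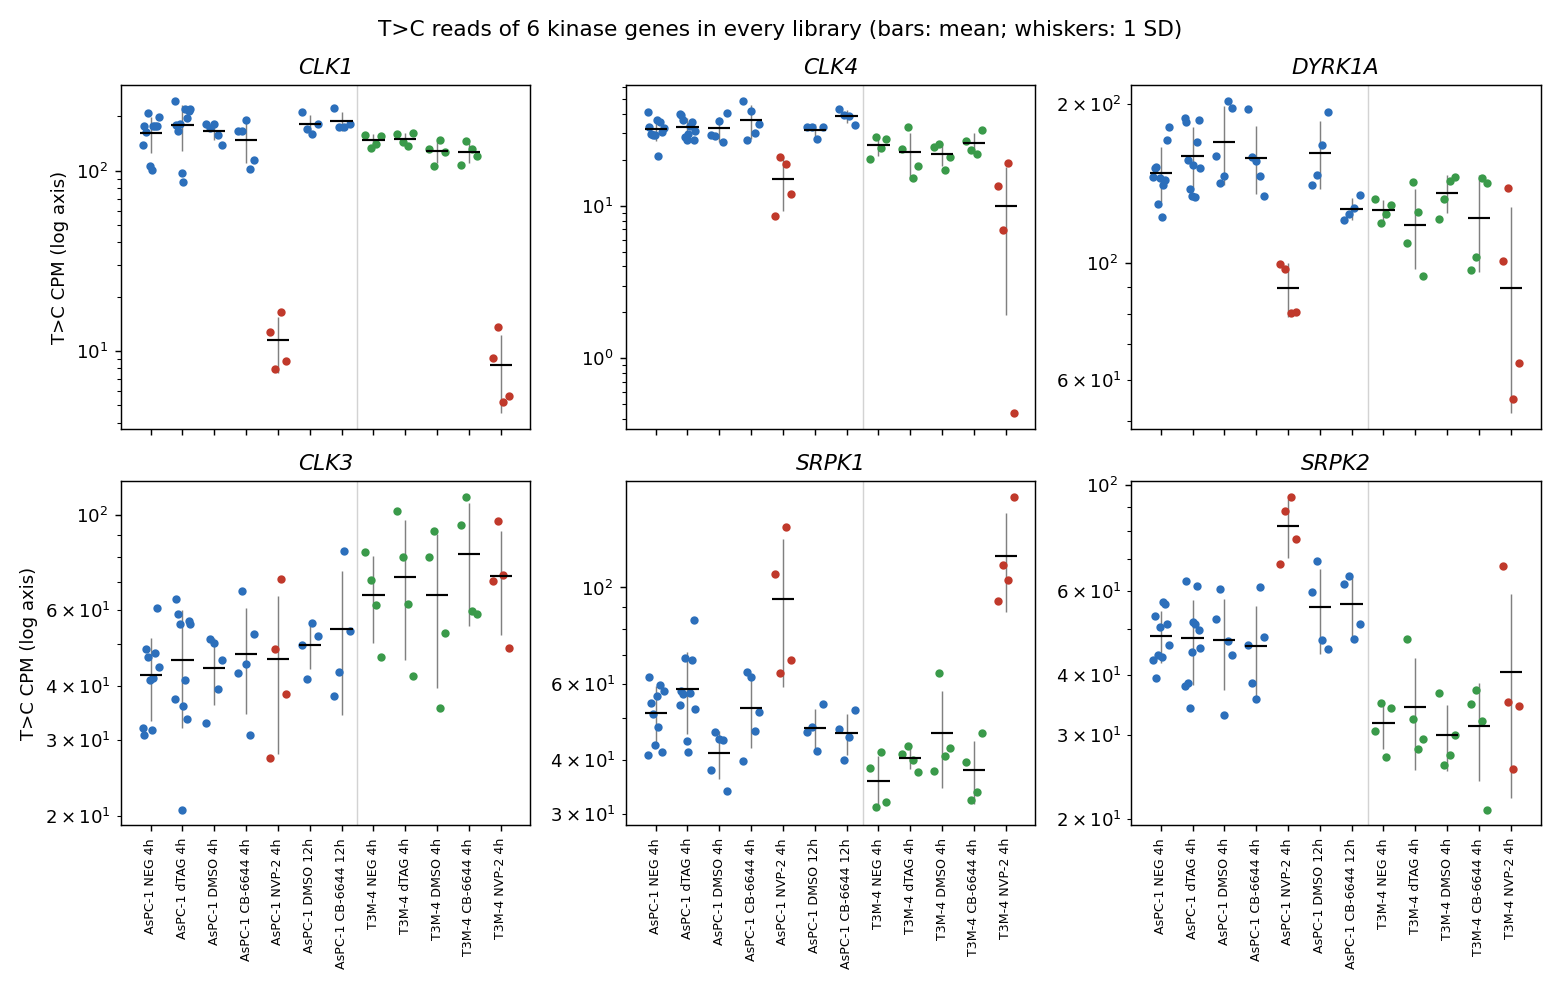
T>C CPM on a log axis (vertical) for 6 kinase genes in every library by group (horizontal), AsPC-1 left and T3M-4 right of the grey line. Points are libraries (NVP-2 in red), black bars means and whiskers 1 SD: CLK1 separates fully after NVP-2 in both lines, SRPK1 lies higher, and the dTAG and CB-6644 groups overlap their controls except CLK4 and DYRK1A in AsPC-1 CB-6644 at 12 h. Neither CLK4 nor DYRK1A passed the test there, and overlap was not counted over all genes.

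These T>C values depend on the scaling, because the T>C share of the libraries itself fell. Scaled by the total of all reads, the median of all genes fell by 3.11 on the log2 scale in T3M-4, and 6 of 6 kinases were lower. CLK1 was then at -6.71 (SE 0.63), CLK4 at -4.18 (SE 0.80), DYRK1A at -3.38 (SE 0.54), CLK3 at -2.78 (SE 0.55), SRPK2 at -2.46 (SE 0.53) and SRPK1 at -1.64 (SE 0.40). The order of the 6 genes was the same on both scales, as a scaling moves all genes of a library alike, with CLK1 lowest and SRPK1 highest. On the scale of all reads, neighbours in this order other than CLK1 and CLK4 lay within the sum of their standard errors.

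**Figure D3:**
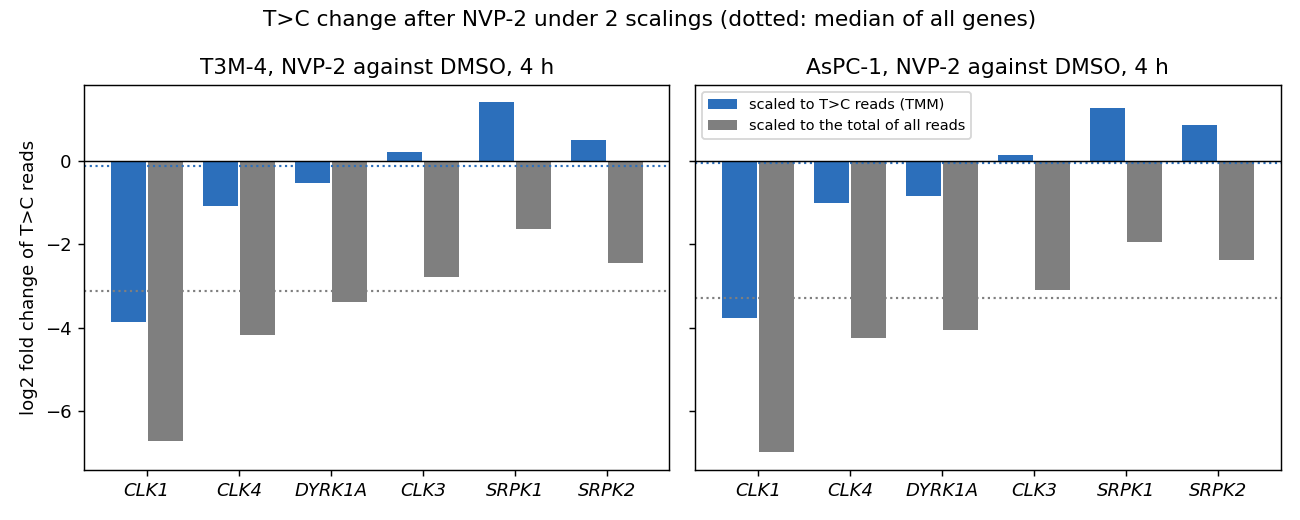
Log2 fold change of T>C reads after NVP-2 (vertical axis) of 6 kinase genes in T3M-4 (left) and AsPC-1 (right), scaled to T>C reads by TMM (blue) or to the total of all reads (grey), with dotted lines at the median of all genes. The order of genes is the same on both scales, and CLK3, SRPK1 and SRPK2 change sign in both lines.

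In AsPC-1 NVP-2 was the comparison that chose CLK1, and its values are listed without a test. CLK1 had 181, 173, 181, 158 and 138 T>C CPM with DMSO and 12.8, 7.92, 16.4 and 8.82 with NVP-2, a log2 fold change of -3.78, rank 206 from the lowest of 11498 genes. In all reads it had 20.9 to 31.0 CPM with DMSO and 1.37 to 3.70 with NVP-2, a change of -3.44. Its labelled share was 64.4% ± 5.3 and 6.49% ± 1.8. The median share, over genes with a mean of at least 100 reads, was 15.1% and 1.63%. The pooled CLK1 share after NVP-2 lay above 93.3% of 11521 such genes. The T>C groups did not overlap.

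Of the other kinases in AsPC-1, CLK4 was at -1.03 in T>C and -1.54 in all reads, DYRK1A at -0.85 and -1.34, CLK3 at 0.14 and -0.39, SRPK1 at 1.25 and 0.49, and SRPK2 at 0.86 and 0.09. CLK3, SRPK1 and SRPK2 turned to -3.09, -1.95 and -2.38 in T>C reads when scaled by the total of all reads, where the median gene was at -3.30. The 4 NVP-2 libraries belong to batch 2 and the DMSO libraries of 4 h to batch 1. Against the NEG libraries of experiment 3 and the DMSO libraries of 12 h, both in batch 2, the CLK1 change was -3.88 and -3.88.

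After degradation of KLF5 no splicing kinase passed the test in level in either line. In AsPC-1 0 of 6 kinases passed in T>C reads (0 at unadjusted p under 0.05, 0 by DESeq2), where 2.4% of 11696 genes passed, and 0 of 8 in all reads (1 unadjusted, 0 by DESeq2), where 0.797% of 13931 passed. CLK1 had a lowest, median and highest T>C level of 100.3, 176 and 208 CPM in the 10 NEG libraries and of 86.4, 188 and 245 CPM in the 10 dTAG libraries. The T>C changes of the 6 genes lay between -0.01 (SE 0.11, SRPK2) and 0.20 (SE 0.12, SRPK1), and the groups overlapped for each.

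In T3M-4 0 of 8 passed in T>C reads (0 unadjusted, 0 by DESeq2), beside 0.834% of 13424 genes, and 0 of 8 in all reads (0 unadjusted, 0 by DESeq2), beside 0.0191% of 15727. CLK1 changed by 0.02 (SE 0.16), CLK3 by 0.12 (SE 0.28), CLK4 by -0.17 (SE 0.26), DYRK1A by -0.11 (SE 0.18), SRPK1 by 0.17 (SE 0.18) and SRPK2 by 0.10 (SE 0.22). The difference of the dTAG effect between the lines passed for 0 of 8 (0 unadjusted, 0 by DESeq2), beside 0.0426% of 14088 genes.

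The labelled share did move with dTAG in AsPC-1, as it did for many genes. It was lower for 4 of 6 kinases, beside 40.2% of 11761 genes that passed and 40.1% that were lower: CLK1 from 57.7% ± 4.3 (n = 10) to 52.2% ± 4.0 (n = 9), CLK4 from 45.2% ± 4.9 to 37.4% ± 3.9, DYRK1A from 35.1% ± 3.3 to 30.2% ± 3.1 and SRPK1 from 17.8% ± 2.7 to 14.2% ± 1.9. Their log2 odds changes lay between -0.47 (SE 0.12, adjusted p = 0.00936, CLK4) and -0.32 (SE 0.10, adjusted p = 0.0207, DYRK1A). The median of the kinases was -0.32 and that of all genes -0.33, and with the median gene removed from each library 0 of 6 passed. Without 1 library in turn the CLK1 call was lost in 7 of 19 fits (without dTAG 2.1, 2.2, 3.2 or 3.4 or NEG 1.2, 1.3 or 1.4, adjusted p up to 0.0649) and the other 3 calls in none. In T3M-4 0 of 8 passed in labelled share (0 unadjusted), beside 0.0894% of 13424 genes.

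CB-6644 gave no call for any kinase. At 4 h in AsPC-1 0 of 6 passed in T>C reads (0 unadjusted, 0 by DESeq2), 0 of 7 in all reads (0 unadjusted, 0 by DESeq2) and 0 of 6 in labelled share (1 unadjusted). In these tests 0% of 11649, 0% of 13891 and 0% of 11649 genes passed. The DMSO libraries used here are also the reference of the NVP-2 comparison that chose CLK1. The gene past the unadjusted level was DYRK1A, whose share was 39.5% ± 2.3 with DMSO and 32.2% ± 2.0 with CB-6644, without overlap of the 5 and 5 libraries, a log2 odds change of -0.46 (SE 0.12, adjusted p = 0.0997) where the median gene was at -0.27. Overlap was not counted over all genes.

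At 4 h in T3M-4 0 of 8 passed in T>C reads (0 unadjusted, 0 by DESeq2), in all reads (0 unadjusted, 0 by DESeq2) and in labelled share (0 unadjusted), beside 0% of 13444, 0.0127% of 15761 and 0% of 13444 genes. T>C changes at 4 h ran from -0.16 (SE 0.18, CLK1) to 0.36 (SE 0.17, SRPK1) in AsPC-1 and, among the same 6 genes, from -0.27 (SE 0.22, SRPK1) to 0.32 (SE 0.32, CLK3) in T3M-4. For SRPK1 the effect was lower in T3M-4 by a difference of -0.65 (SE 0.27, unadjusted p = 0.0267 in the edgeR interaction test, adjusted p = 1.00), and 0 of 8 kinases passed that test (1 unadjusted, 0 by DESeq2), beside 0% of 13963 genes.

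At 12 h in AsPC-1 0 of 6 passed in T>C reads (0 unadjusted, 0 by DESeq2), 0 of 7 in all reads (1 unadjusted, 0 by DESeq2) and 0 of 6 in labelled share (0 unadjusted), beside 0% of 12204, 0% of 14398 and 0% of 12204 genes. DYRK1A had the lowest T>C fold change, with 126 ± 6.0 T>C CPM against 162 ± 24 with DMSO (n = 4 each) without overlap, a log2 change of -0.35 (SE 0.17, adjusted p = 0.998). In all reads it was 31.2 ± 0.76 against 41.9 ± 9.9 CPM, also without overlap, a change of -0.42 (SE 0.18, adjusted p = 1.00). CLK4 T>C CPM lay above DMSO in every library, 38.7 ± 3.8 against 31.5 ± 2.7, a change of 0.30 (SE 0.17, adjusted p = 0.998). The gap was narrow, with 33.8 as the lowest CB-6644 value and 33.0 as the highest DMSO value. How many of all genes separated without overlap, as CLK4 and DYRK1A did, was not counted. The difference of the effect between 12 h and 4 h passed for 0 of 7 (0 unadjusted, 0 by DESeq2), beside 0% of 12720 genes.

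**Figure D4:**
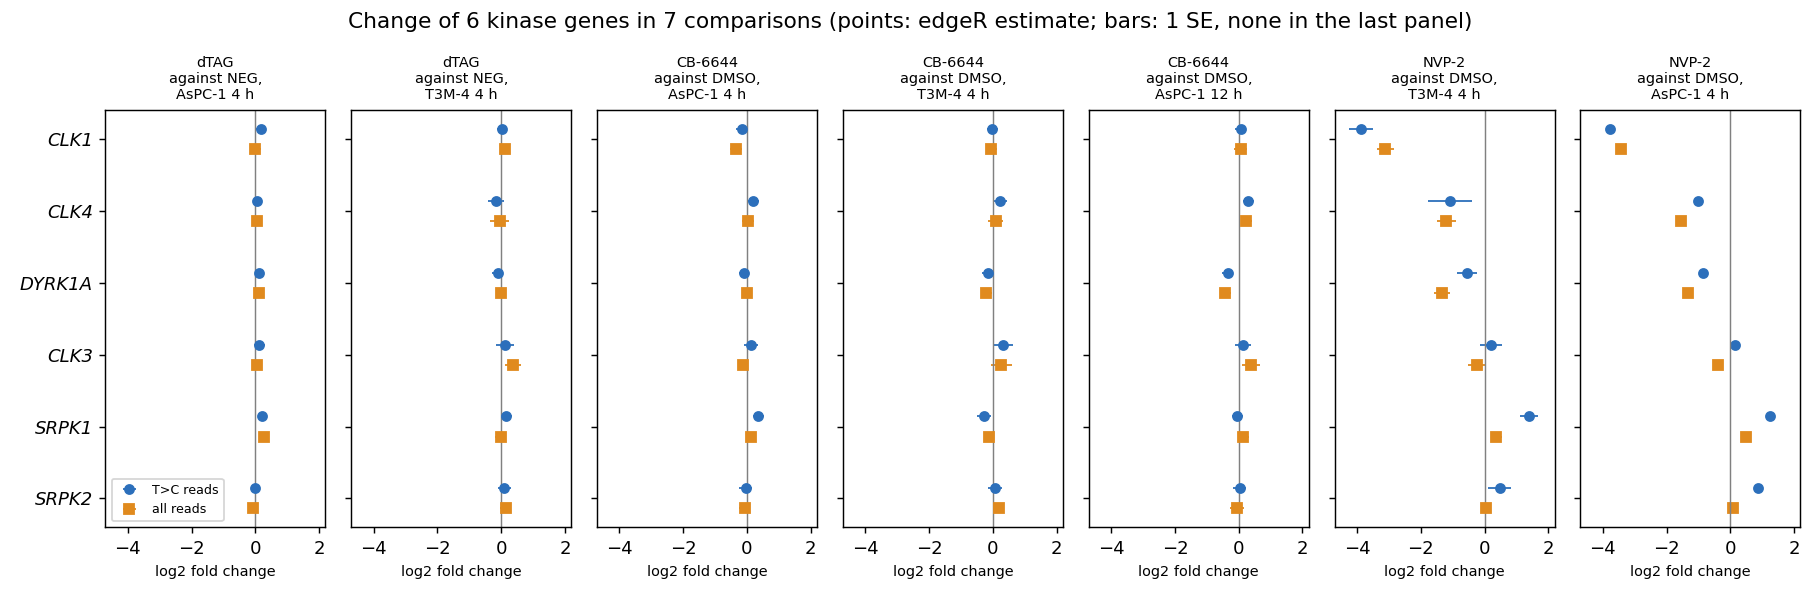
Log2 fold change (horizontal axis, bars 1 SE) of 6 kinase genes (rows) in T>C reads (blue circles) and all reads (orange squares) in 7 comparisons. Points scatter around 0 for dTAG and CB-6644, and CLK1 lies beyond -3 only after NVP-2; the last panel, AsPC-1 NVP-2, is the comparison that chose CLK1 and carries no bars.

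Genes with the pattern most like each kinase were read from Pearson's r of log2 T>C CPM over 62 libraries, with each line's mean removed, among 15030 genes. For CLK1 these were LRATD2 (0.957), XBP1 (0.956) and IRF2BPL (0.954), and without the NVP-2 libraries (54 left) r was 0.648, 0.746 and 0.279. For CLK4 they were IFRD1 (0.916), ZNF644 (0.887) and FAN1 (0.875), and without NVP-2 0.241, 0.163 and 0.333. For DYRK1A they were DDX47 (0.827), ZNF16 (0.820) and RBM12 (0.799), and without NVP-2 0.587, 0.397 and 0.602. For SRPK1 they were OAZ1 (0.833), COX6A1 (0.824) and CTSB (0.8003), and without NVP-2 0.414, 0.314 and 0.229. CLK2 was nearest to CCN1 (0.590), IRS2 (0.561) and JUN (0.561), without NVP-2 0.397, 0.346 and 0.411, from few reads. DYRK1B, also from few reads, was nearest to ZNF14 (0.608), GMPPB (0.565) and ELOF1 (0.563), without NVP-2 0.358, 0.447 and 0.276. SRPK2 was nearest to CACUL1 (0.755), PILRB (0.718) and METTL15 (0.672), without NVP-2 0.698, 0.674 and 0.552. CLK3 was nearest to RAPGEF5 (0.605), PSMA6 (0.601) and GCN1 (0.580), without NVP-2 0.590, 0.633 and 0.613. The points share libraries, depth and TMM scaling. CLK1 went with DYRK1A (0.735) and CLK4 (0.679) and against SRPK1 (-0.712), and these values were 0.122, 0.0582 and 0.227 without the 8 NVP-2 libraries.

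The substrates and neighbours of these kinases were read in the same fits from 3 lists. Of the SR proteins, the main substrates of CLKs and SRPKs, 13 of 14 were tested in T>C reads after NVP-2 in T3M-4, where 6 were lower and 1 higher, beside 14.2% of all genes lower and 12.4% higher. SRSF8 (-2.15, SE 0.49, adjusted p = 0.00946), SRSF6 (-1.93, SE 0.48, adjusted p = 0.0135) and SRSF10 (-1.05, SE 0.25, adjusted p = 0.0112) were among the lower, and SRSF9 was higher (1.25, SE 0.26, adjusted p = 0.00653) but at -1.83 when scaled by the total of all reads. The median was -0.62, against -0.12 for all genes.

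Of 14 SR-like splicing coactivators, all tested, 7 were lower and 1 higher in that comparison, beside the same 14.2% and 12.4% of all genes, with a median of -0.89. RSRC2 had the lowest value (-3.51, SE 0.43, adjusted p = 0.000518), near that of CLK1, followed by PNN (-2.16, SE 0.29), a speckle protein, and SRRM1 (-1.96, SE 0.30). U2AF2, which binds the polypyrimidine tract at 3′ splice sites, was higher (2.25, SE 0.38, adjusted p = 0.00220), and at -0.75 on the scale of all reads. Of 12 other kinases of the CMGC group near splicing, 9 were tested and DYRK2 (-2.65, SE 0.46, adjusted p = 0.00235) and DYRK3 (-2.14, SE 0.68, adjusted p = 0.0390) were lower, while DYRK4 was higher (1.75, SE 0.44, adjusted p = 0.0139) and at -1.29 on the scale of all reads. These 2 lower and 1 higher of 9 are close to the shares over all genes, and their median was -0.22.

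In AsPC-1, without a test, the medians after NVP-2 were -0.82 for the SR proteins, -0.44 for the coactivators and -0.25 for the other kinases, against -0.05 for all genes. In the dTAG and CB-6644 comparisons no gene of the 3 lists passed in T>C reads in either line or at either time. Between the lines in DMSO, SR proteins were higher in T3M-4 for 4 genes and lower for 1, coactivators higher for 3 and lower for 1, and other kinases lower for 4 and higher for 0, of 13, 14 and 10 tested. Over all genes 48.4% differed, 26.8% higher and 21.6% lower, so none of the 3 lists held a larger share of called genes than that. SRSF2 (0.74, SE 0.15), SRSF11 (0.91, SE 0.20), TRA2B (0.61, SE 0.18) and SRSF7 (-0.65, SE 0.17) were the SR proteins with the smallest p, RSRC2 (0.57, SE 0.13) and SCAF11 (-0.95, SE 0.16) stood among the coactivators, and HIPK2 (-1.48, SE 0.20) and CDK13 (-0.85, SE 0.17) among the other kinases.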

How the data were processed

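The deposited files hold raw counts per gene, not normalized by the authors: 1 table of T>C reads and 1 of all reads for each line. By the study's methods, 3′ QuantSeq libraries were aligned to hg38 and counted with slamdunk, run with its defaults, on the 3′ UTR exons that GENCODE v44 lists, and no spike-in was used. Whether unlabelled libraries were used to subtract background conversions is not given in the sources used here. Members were matched by gene name, and their positions come from GENCODE v44 on GRCh38, the build of the labels. The all-reads column of AsPC-1 dTAG 3.1 was left out because it holds the T>C values of a DMSO 12 h library, so 1 column was not used.

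Counts were tested with edgeR 4.0.16 in R 4.3.3 (filterByExpr, TMM, glmQLFit, glmQLFTest) within each comparison, over all genes, with Benjamini-Hochberg adjustment and a threshold of 0.05. The labelled share was tested with limma 3.58.1 on log2((T>C + 0.5)/(other reads + 0.5)). DESeq2 1.42.0 was an alternative. Total T>C reads per library were 2240998 to 27982537. Members and lists were chosen with earlier results of these data known. Named genes were the 8 members, the 3 genes most alike to each and up to 4 called genes per list. Groups follow the labels. Replicate numbers paired the libraries (every pair's correlation over 0.1) for dTAG in both lines (lowest 0.264 and 0.167), CB-6644 in T3M-4 (0.163) and at 12 h (0.331), but not for CB-6644 in AsPC-1 at 4 h (lowest -0.0826) or NVP-2 in T3M-4 (0.0790).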

Additional observations from a re-analysis of the deposited data

Results flagged for a closer look

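In 216 sets (6 kinase genes, 12 groups, 3 measures) 8 single libraries lay far from the rest of their group by Dixon's criterion, which chance meets in about 1 of 20 groups. CLK1 was at 224 T>C CPM in AsPC-1 CB-6644 12 h library 1, against 174 to 182 in the other 3. CLK4 was at 27.4 T>C CPM in AsPC-1 DMSO 12 h library 3, against 32.7 to 33.0, and CLK4 in AsPC-1 at 12 h is one of the sets without overlap described above. The labelled share of CLK4 was 75.3% in T3M-4 dTAG library 2.1, against 61.5% to 62.7%. DYRK1A was at 50.3 all-reads CPM in AsPC-1 dTAG library 3.3, against 40.7 to 44.6, and at 48.0 in AsPC-1 NEG library 3.4, against 37.6 to 41.2. SRPK1 was at 52.2 all-reads CPM in that dTAG library 3.3, against 26.5 to 38.4, and its labelled share was 14.3% in AsPC-1 CB-6644 4 h library 1.1, against 16.2% to 16.8%. SRPK2 was at 31.8 all-reads CPM in AsPC-1 CB-6644 12 h library 2, against 22.3 to 23.8.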

How the results depend on the processing

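Of 398 alternative counts of kinases called, 378 stayed within 1.5 times the reported count and 20 did not. Many of the 378 were counts of 0 that stayed 0, so this total says little about the comparisons with calls. All 0 counts for dTAG and CB-6644 in T>C and all reads, and for the interactions, stayed 0 under every alternative run. After NVP-2 in T3M-4, the 2 calls in T>C reads became 4 with DESeq2, 1 in batch 1 alone, 6 when scaled by the total of all reads and 0 with counts summed per experiment (SRPK1 1.39, adjusted p = 0.111 by edgeR), where 0 genes passed in all. The 2 calls in all reads became 4 with DESeq2, 1 in batch 1 alone, 4 in batch 2 alone and 1 to 3 without each library in turn. With the replicate number as a block they became 4 (CLK1, CLK2, CLK4 and DYRK1A), the T>C calls stayed at 2 and the share calls went from 6 to 8, but the numbers did not pair these libraries, and in the other comparisons the block changed no count of kinases called. With the median gene removed from each library, labelled-share calls fell from 6 to 2 after NVP-2 in T3M-4, where CLK3 (0.56), DYRK1A (0.49), SRPK1 (1.37) and SRPK2 (0.63) turned to higher log2 odds, and from 4 to 0 for dTAG in AsPC-1. SRPK1 in T>C reads turned to -1.64 when scaled by the total of all reads. CLK2, with few reads, turned from -0.63 to 1.37 in batch 1 alone for CB-6644 in T3M-4, and ranged from -1.19 to 0.19 without each library in turn (0.19 without DMSO 2.2). Between the lines, 1 call in T>C reads became 2 with DESeq2, 0 without the filter on low counts (CLK3 0.67, adjusted p = 0.0668 by edgeR) and 0 to 1 without each library in turn, and 3 calls in all reads became 1 to 3. With RLE size factors the T>C count was 1 but another gene, SRPK2 in place of CLK3 (0.68, adjusted p = 0.0565 by edgeR). The causes were not tested. After NVP-2, CLK1 and CLK4 rest on as few as 13 and 1 T>C reads in a T3M-4 library.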
